A study of Homo sapiens with 60 samples.

Results

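The 47 genes described here make the machinery of DNA replication and of the entry into S phase. They were listed by name and not by a cut on their values, but earlier results of these data were known. They cover origin licensing, helicase activation, polymerases and primase, the sliding clamp with its loader, flap removal, ligation and single-strand binding, nucleotide synthesis, S phase entry, and chromatin assembly behind the fork. All 47 of 47 were found among the 60675 genes of the expression table, and all 47 were among the 17190 genes that passed the filter on low counts. The cells were SW1783, an established human astrocytoma line, and RNA was sequenced 24 h after a vehicle or a hot water extract was added. The vehicle was DMSO at 0.1% per the sample labels (2% per the design text). The extracts were Citri Unshius Pericarpium, Cimicifugae Rhizoma, Bupleuri Radix, Aconiti Lateralis Radix Preparata, and the formulas Yijung-tang and Banhasasim-tang, each at 500, 100 and 20 µg/mL, and these doses are named high, medium and low. Each of these 18 groups and the vehicle had 3 libraries, which makes 57, and Bojungikgi-tang had 1 library per dose. No label read here tells whether the extracts also carried DMSO. The sample names fall into code sets: set 5 holds Citri and Cimicifugae, set 6 holds Bupleuri and Aconiti, set 7 holds the 2 replicated formulas, and the vehicle has a set of its own. Code set and treatment therefore cannot be told apart in a comparison with the vehicle, but the doses of an extract share a set. The labels do not say that the 3 libraries of a group came from separate cultures, so p-values cover only how much these libraries scatter, and that scatter may be technical.

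Replication starts at origins. In G1 the origin recognition complex, CDC6 and CDT1 load the MCM2 to MCM7 ring onto DNA, a step called licensing. At the start of S phase CDC45 and the GINS complex join the ring and turn it into the active helicase, after which primase and the replicative polymerases copy the strands on the PCNA clamp. Many of these genes are transcribed together late in G1 by E2F factors, once cyclin-dependent kinases have inactivated the retinoblastoma protein, and cyclin E and CDC25A are part of that switch. Their RNA levels are widely read as a mark of proliferating cells.

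The shared feature of these genes that can be read in sequence is the E2F site near the start of transcription. RefSeq promoter windows of 300 bases (250 before to 50 after the start, GRCh38.p14) matched 40 members by symbol. MCM4, MCM5, GINS4, POLD3, RPA2, RPA3 and CCNE2 had no window. The E2F motifs searched, on both strands, were TTCCCGC with its variant TTCGCGC, as well as TTGGCGC with its variant TTGCCGC. At least 1 of them stood in 33 of the 40 promoters (82.5%), against 13.0% of all 35116 windows and 24.0% of the 11815 tested genes with a window. CCAAT, on both strands, stood in 24 of the 40 (60%), against 34.6% of all windows and 42.9% of the tested genes with a window. The letters TTTGAA or TTCGAA, the cell cycle homology element of many G2 and M phase genes, stood in 2 of the 40 (5%), against 16.4% of all windows and 15.8% of the tested genes with a window. The 6 stretches below run from 180 bases before the start to 30 after it, 5′ to 3′ on the gene's strand, in the first window listed for each gene. UHRF1, E2F2, ORC1 and MCM3 are shown because they are among the genes with the largest falls under Aconiti below, MCM6 because it fell under 5 of 6 extracts, and CDC6 because it rose. Capitals mark the E2F matches, and matches on opposite strands that overlap form 1 run of capitals.
UHRF1 (chr19:4909321-4909530, plus strand): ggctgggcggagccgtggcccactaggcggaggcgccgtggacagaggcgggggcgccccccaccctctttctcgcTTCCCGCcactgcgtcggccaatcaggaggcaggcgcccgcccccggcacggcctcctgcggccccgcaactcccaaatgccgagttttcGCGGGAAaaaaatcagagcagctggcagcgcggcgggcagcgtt
E2F2 (chr1:23531204-23531413, minus strand): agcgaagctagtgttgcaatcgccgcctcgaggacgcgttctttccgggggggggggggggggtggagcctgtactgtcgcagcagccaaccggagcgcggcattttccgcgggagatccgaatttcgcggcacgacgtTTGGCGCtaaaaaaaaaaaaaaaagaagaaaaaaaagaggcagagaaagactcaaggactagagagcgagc
ORC1 (chr1:52404394-52404603, minus strand): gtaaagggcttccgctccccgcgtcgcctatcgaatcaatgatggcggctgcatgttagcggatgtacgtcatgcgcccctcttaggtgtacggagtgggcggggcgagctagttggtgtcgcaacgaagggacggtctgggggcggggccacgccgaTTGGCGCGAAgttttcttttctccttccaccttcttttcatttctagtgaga
MCM3 (chr6:52284713-52284922, minus strand): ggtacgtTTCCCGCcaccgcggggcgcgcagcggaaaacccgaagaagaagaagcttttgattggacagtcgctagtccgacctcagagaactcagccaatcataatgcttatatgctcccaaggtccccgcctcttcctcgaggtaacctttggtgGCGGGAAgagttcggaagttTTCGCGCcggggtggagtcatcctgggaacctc
MCM6 (chr2:135876414-135876623, minus strand): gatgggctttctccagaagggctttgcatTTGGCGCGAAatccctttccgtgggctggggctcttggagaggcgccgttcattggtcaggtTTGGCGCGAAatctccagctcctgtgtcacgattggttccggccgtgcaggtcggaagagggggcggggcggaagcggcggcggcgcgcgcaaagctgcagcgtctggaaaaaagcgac
CDC6 (chr17:40287699-40287908, plus strand): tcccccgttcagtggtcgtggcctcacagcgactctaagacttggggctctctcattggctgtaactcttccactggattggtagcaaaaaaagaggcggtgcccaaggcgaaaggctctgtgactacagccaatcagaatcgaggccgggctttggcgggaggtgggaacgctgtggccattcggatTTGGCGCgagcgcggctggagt
In these stretches the first match began 104 bases before the start in UHRF1, 41 before it in E2F2, 22 before it in ORC1, 173 before it in MCM3 and 151 before it in MCM6. The CDC6 match began at base 9 of the transcript. A match is a description of the letters and was not tested for binding.

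The libraries held 18.9 to 36.4 M counts each, and the 47 genes together held 0.291 to 0.300% of the counts of the vehicle libraries. The labelled cell line was checked against astrocyte and glioma markers. VIM, CD44, NES and SLC1A3 passed the filter, while GFAP, S100B, AQP4 and ALDH1L1 did not and stayed at or below 0.414 CPM (counts relative to library size, scaled by TMM factors) in every library. At the high dose of Aconiti these astrocyte and glioma markers moved against the vehicle. SLC1A3 (-2.43), NES (-1.71) and CD44 (-0.37) fell and VIM (0.31) rose on the log2 scale. The summed level of the 8 genes of this list was 7019 to 7398 CPM in the vehicle and 7522 to 7580 CPM at the high dose. Markers of other cell types moved too, and the part of all these markers in the results below was not tested. The summed level of the fibroblast list (5 of 5 genes passed the filter) was 5577 to 5807 CPM in the vehicle and 1434 to 1551 CPM at the high dose, that of epithelium (3 of 5) 239.6 to 249 and 89.7 to 93.9, that of neurons (4 of 6) 80.2 to 82.4 and 67.7 to 71.6, that of leukocytes (2 of 5) 151 to 159.8 and 195 to 208, and that of endothelium (2 of 4) 28.2 to 29.7 and 30.7 to 33.5. No gene of these lists was at 0 throughout a group. Mitochondrially encoded transcripts held 4.11 to 4.33% of the vehicle counts, 6 of the 13 fell at the high dose of Aconiti and 0 rose, and 3 libraries stood apart from their groups with 7.37% (Yijung-tang high dose, replicate 1), 6.54% (Cimicifugae high dose, replicate 3) and 6.11% (Citri low dose, replicate 3).

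Under Aconiti Lateralis Radix Preparata, the processed lateral root of aconite, nearly all of the replication genes fell. At the high dose 42 of the 47 fell and 2 rose (edgeR quasi-likelihood test, Benjamini-Hochberg adjusted p under 0.05 over all genes), where 28.9% of all genes were called lower and 31.5% higher. The median log2 fold change of the 47 was -0.52, against 0.006 over all genes tested. At the medium dose 41 fell and 0 rose, where 15% of all genes were called lower and 16.1% higher, with a median of -0.30. At the low dose 5 fell and 0 rose, where 1.04% of all genes were called lower and 1.15% higher, with a median of -0.084. The members' share of all counts went from 0.295% ± 0.0044 (SD, n = 3) in the vehicle to 0.270% ± 0.0066 at the low, 0.212% ± 0.0022 at the medium and 0.180% ± 0.00094 at the high dose. In bulk RNA fewer cells in S phase and less RNA of these genes per cell cannot be told apart.

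**Figure D1:**
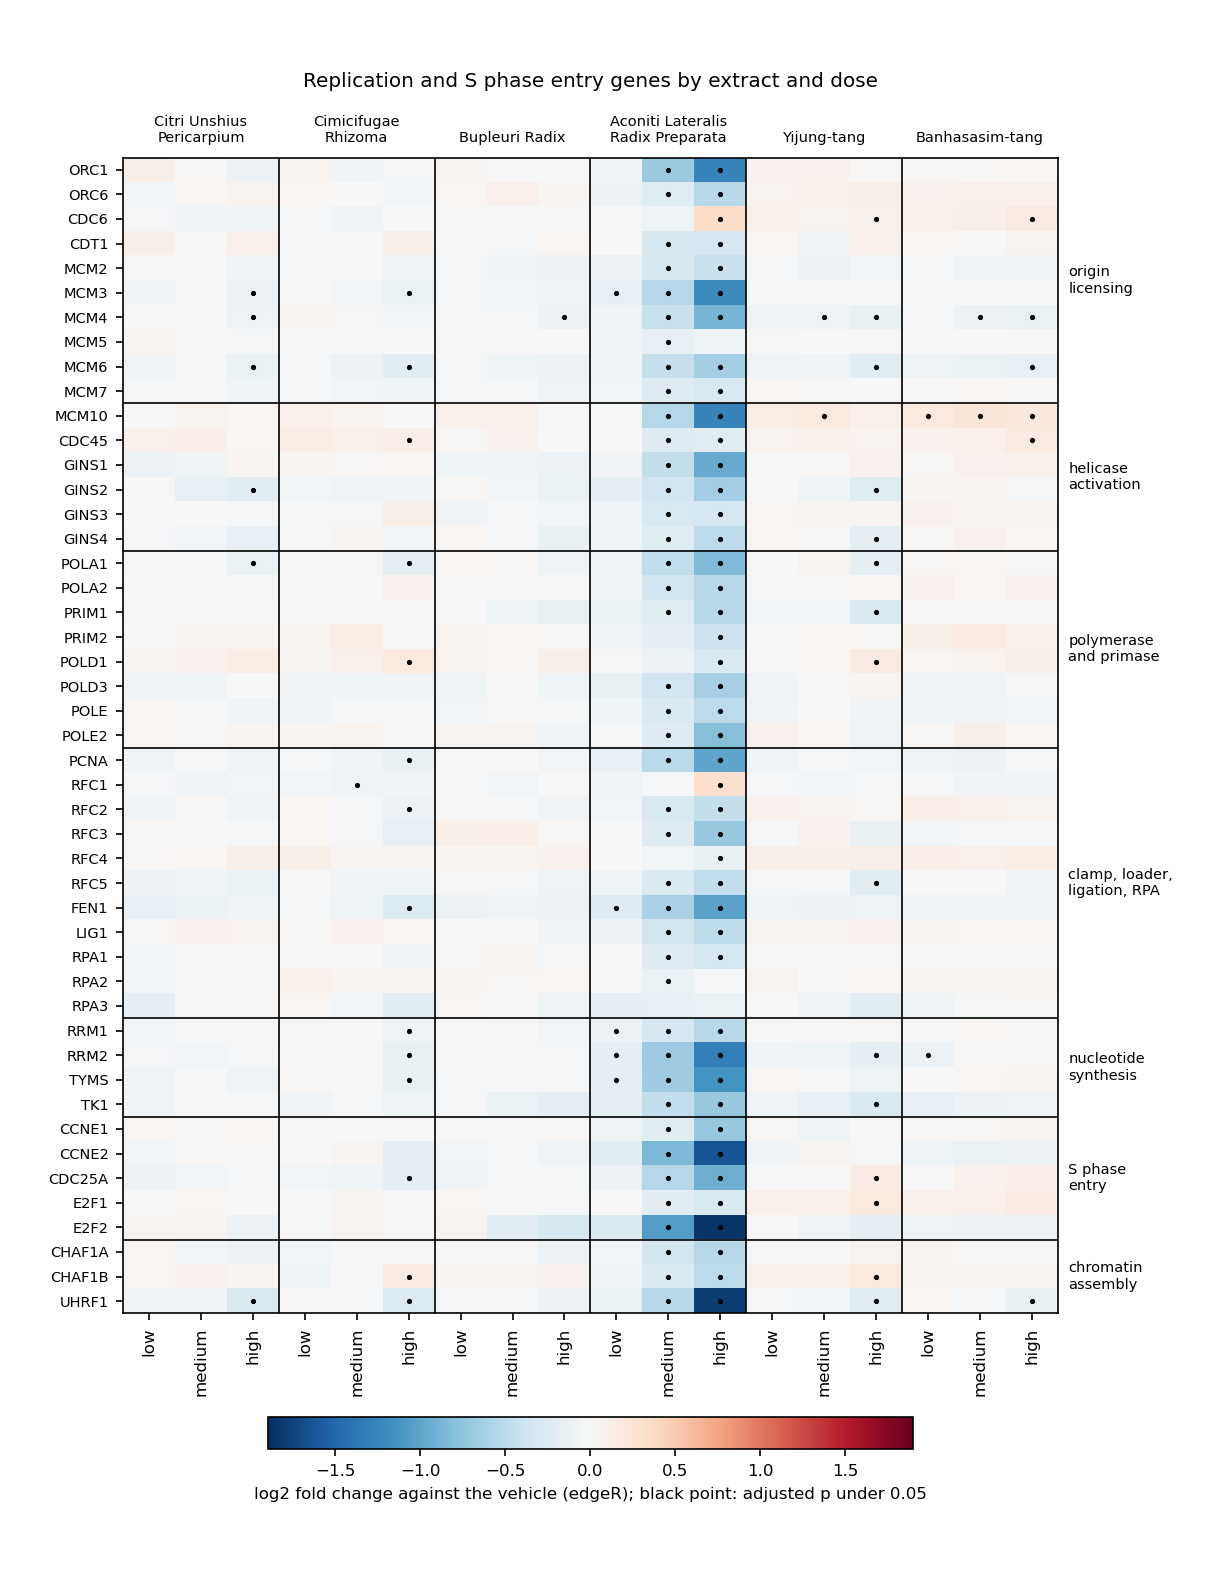
Log2 fold change against the vehicle of the 47 genes (rows, grouped by role) in the 18 groups of extract and dose (columns), with a black point where the edgeR adjusted p was under 0.05. The 3 Aconiti columns hold 5, 41 and 44 points from the low to the high dose, while the other columns stay pale and hold at most 15.

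Origin licensing lost RNA of 8 of its 10 genes at the high dose of Aconiti, with a median log2 fold change of -0.47, while CDC6 rose and MCM5 was not called. ORC1, the largest subunit of the origin recognition complex, had 16.4, 16.8 and 17.1 CPM in the vehicle libraries, 15.8, 15.4 and 16.3 at the low, 10.8, 10.3 and 9.83 at the medium and 7.94, 6.59 and 6.49 at the high dose. No libraries of these 4 groups overlapped, and at the high dose ORC1 fell by 1.27 ± 0.074 on the log2 scale (SE; edgeR adjusted p = 1.25e-20). MCM7, the licensing gene of the highest level, went from 202, 202 and 208 CPM in the vehicle to 161, 167 and 173 CPM at the high dose and fell by 0.29 ± 0.036 (edgeR adjusted p = 1.18e-09). The 6 subunits of the MCM ring, which act in equal numbers, had different sizes of change. MCM3 had the largest fall of the 6, from 154, 152 and 151 CPM to 67.2, 65.4 and 65.5 CPM, or by 1.21 ± 0.037 on the log2 scale. MCM4 fell by 0.89 ± 0.03, MCM6 by 0.65 ± 0.052 and MCM2 by 0.43 ± 0.056. MCM5 had 83.1, 84.4 and 87.2 CPM in the vehicle, 72.1, 80.3 and 75.4 at the medium and 82.8, 74.9 and 80.1 at the high dose. Its fall at the medium dose passed the test (log2 fold change -0.16, edgeR adjusted p = 0.00733), and the value at the high dose did not (-0.10, edgeR adjusted p = 0.0622).

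CDC6, the ATPase that loads the MCM ring at the origin complex (ENSG00000094804, chromosome 17, bases 40287633 to 40304657 of GRCh38, plus strand), moved against the rest of its group. Its level was 93.2, 85.9 and 86.9 CPM in the vehicle, 84.4, 88.2 and 89.3 at the low, 87.1, 81.7 and 79.7 at the medium and 117, 109 and 112 at the high dose. The high-dose libraries lay above every other library of this series of doses, and CDC6 rose by 0.35 ± 0.039 on the log2 scale against the vehicle (edgeR adjusted p = 4.69e-11) and by 0.37 ± 0.039 against the low dose. At the medium dose it was not called (-0.10, edgeR adjusted p = 0.0508). CDT1, its partner in loading, fell by 0.33 ± 0.072 at the high dose, and ORC6, a small origin complex subunit, fell by 0.52 ± 0.059.

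**Figure D2:**
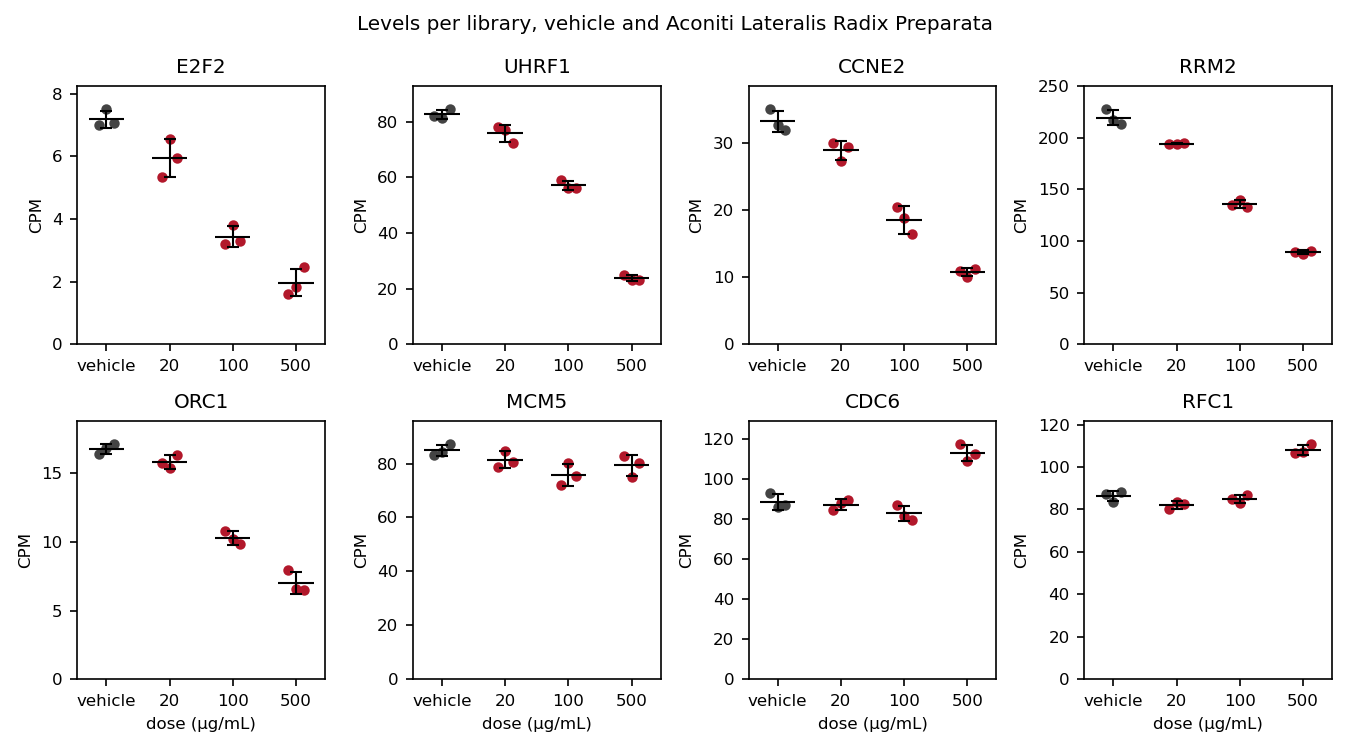
Level in CPM (linear axis from 0) of 8 of the genes in each library of the vehicle and of the 3 doses of Aconiti; points are libraries, the horizontal line is the mean of 3 and the error bar is their SD. E2F2, UHRF1, CCNE2, RRM2 and ORC1 step down with dose, MCM5 overlaps across doses, and CDC6 and RFC1 lie above the vehicle only at 500 µg/mL.

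Helicase activation fell in 6 of 6 genes at the high dose, with a median of -0.58. MCM10, which helps to start unwinding, had 29.1, 29.4 and 29.3 CPM in the vehicle, 28.5, 29.7 and 27.97 at the low, 21.2, 20.1 and 19.4 at the medium and 12.2, 11.4 and 12.99 at the high dose. The low-dose libraries overlapped the vehicle, the other 2 doses did not, and at the high dose MCM10 fell by 1.26 ± 0.062 (edgeR adjusted p = 2.03e-23). Among the 4 GINS subunits, which form a tetramer, GINS1 fell by 0.96 ± 0.053, GINS2 by 0.67 ± 0.067, GINS4 by 0.49 ± 0.062 and GINS3 by 0.34 ± 0.077. GINS4, the helicase gene of the highest level, had 41.4, 39.3 and 41.6 CPM in the vehicle and 30.7, 26.9 and 29.3 CPM at the high dose. CDC45, the third component of the active helicase, had the smallest fall of the 6, by 0.23 ± 0.049, which was already -0.25 at the medium dose.

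Polymerase and primase genes fell in 8 of 8 cases at the high dose, between -0.83 (POLA1) and -0.29 (POLD1) on the log2 scale. POLA1, the catalytic subunit of the polymerase that primes each Okazaki fragment, had 69.00, 64.96 and 66.1 CPM in the vehicle, 50.8, 47.4 and 46.99 at the medium and 38.5, 37.03 and 36.9 at the high dose. POLE, the catalytic subunit of the leading-strand polymerase and the gene of the highest level in this group, went from 84.2, 85.2 and 79.2 CPM to 59.7, 56.5 and 60.4 CPM at the high dose. It fell by 0.49 ± 0.045, and its accessory subunit POLE2 fell by 0.81 ± 0.091. The 2 primase subunits PRIM1 and PRIM2 fell by 0.52 ± 0.071 and 0.39 ± 0.07, and the lagging-strand polymerase subunits POLD1 and POLD3 by 0.29 ± 0.06 and 0.64 ± 0.048. PRIM2 and POLD1 were the 2 genes of this group that were not called at the medium dose.

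Clamp, loader, flap, ligation and single-strand binding genes were the most mixed group, with 8 falls, 1 rise and 2 values that did not pass the test among 11. PCNA, the sliding clamp, had 151, 143 and 153 CPM in the vehicle, 138, 133 and 129 at the low, 102, 103 and 107 at the medium and 75.2, 76.7 and 71.8 at the high dose. No libraries of these 4 groups overlapped, and at the high dose PCNA fell by 1.00 ± 0.058 (edgeR adjusted p = 1.16e-20), about the size of the change in FEN1, the flap endonuclease, by 1.01 ± 0.068. FEN1 shares 49 bases of exon with FADS2 on its own strand and 166 with TMEM258 on the other, and at the high dose FADS2 fell by 0.67 ± 0.049 and TMEM258 rose by 0.32 ± 0.102. The clamp loader is a complex of RFC1 with 4 small subunits, and RFC1 (ENSG00000035928, chromosome 4, bases 39287456 to 39366375, minus strand) parted from them. RFC1 had 87.4, 83.4 and 88.1 CPM in the vehicle, 80.1, 83.3 and 82.6 at the low, 85.03, 83.2 and 86.7 at the medium and 106, 107 and 111 at the high dose. Its high-dose libraries lay above all others and it rose by 0.33 ± 0.032 (edgeR adjusted p = 1.79e-12), while RFC2 fell by 0.46 ± 0.041, RFC3 by 0.72 ± 0.07, RFC5 by 0.47 ± 0.052 and RFC4 by 0.14 ± 0.056. The RFC4 call (edgeR adjusted p = 0.0266) was lost in 3 of 12 alternative settings. Single-strand binding protein also parted: RPA1 fell by 0.33 ± 0.033, while RPA2 (-0.03) and RPA3 (-0.13) did not pass the test. LIG1, which seals the fragments, fell by 0.49 ± 0.068.

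Nucleotide synthesis had the lowest median of the 7 roles, -0.93, and its 4 genes fell at both the medium and the high dose. RRM2, the S phase subunit of ribonucleotide reductase, had 227, 218 and 214 CPM in the vehicle, 194, 194 and 195 at the low, 135, 139.7 and 133 at the medium and 89.2, 87.2 and 90.8 at the high dose. Each dose lay below the one before without overlap, and at the high dose RRM2 fell by 1.30 ± 0.033 (edgeR adjusted p = 4.53e-35). RRM1, the large subunit of the same enzyme, fell by 0.52 ± 0.026. TYMS, which makes thymidylate, went from 91.9, 92.3 and 85.6 CPM in the vehicle to 42.00, 39.4 and 42.1 CPM and fell by 1.13 ± 0.057. TK1, the salvage kinase for thymidine, fell by 0.72 ± 0.065.

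S phase entry genes fell in 5 of 5 cases, with a median of -0.92. E2F2, a transcriptional activator of replication genes, was the member of the lowest level and of the largest change. Its level was 7.00, 7.49 and 7.05 CPM in the vehicle, 5.33, 6.54 and 5.94 at the low, 3.19, 3.82 and 3.31 at the medium and 1.61, 1.84 and 2.46 at the high dose, and it fell by 1.85 ± 0.14 (edgeR adjusted p = 3.29e-16). E2F1, its close relative and the S phase entry gene of the highest level, went from 45.3, 43.2 and 42.8 CPM in the vehicle to 34.6, 37.1 and 35.3 CPM and fell by 0.29 ± 0.061. The 2 cyclin E genes, which activate CDK2, also fell by different amounts. CCNE2 had 34.9, 32.7 and 31.8 CPM in the vehicle, 20.4, 18.7 and 16.3 at the medium and 10.9, 10.00 and 11.1 at the high dose and fell by 1.64 ± 0.087, while CCNE1 fell by 0.71 ± 0.058. CCNE2 shares 1629 bases of exon with INTS8 on the opposite strand, whose log2 fold change was -0.23, and no source read here tells whether the counting used strand. CDC25A, the phosphatase that activates CDK2, fell by 0.92 ± 0.06.

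Chromatin assembly genes fell in 3 of 3 cases, and UHRF1, which brings maintenance DNA methylation to new strands, fell far more than the 2 CAF-1 subunits. UHRF1 had 82.1, 81.4 and 84.3 CPM in the vehicle, 78.1, 76.9 and 72.2 at the low, 58.9, 56.2 and 56.1 at the medium and 24.97, 23.00 and 23.1 at the high dose. The 4 groups did not overlap, and at the high dose UHRF1 fell by 1.80 ± 0.045 (edgeR adjusted p = 1.81e-35), against 0.52 ± 0.059 for CHAF1A and 0.50 ± 0.047 for CHAF1B. In all, 9 members were called and lowered at least 2-fold at the high dose, where 6.18% of all genes were: E2F2, UHRF1, CCNE2, RRM2, ORC1, MCM10, MCM3, TYMS and FEN1. PCNA stood just outside that line.

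The order of doses held across most of the members. The group mean fell at every step from the vehicle over the low and medium to the high dose in 38 of 47 genes, where 17.9% of all genes did so, and in 33 the low, medium and high libraries fell without overlap, where 10.4% of all genes did. From the low to the medium dose 34 fell and 0 rose, where 9.5% of all genes were called lower, and from the medium to the high dose 34 fell and 3 rose, where 22.3% were called lower and 24.8% higher. The members differed in where the fall lay. UHRF1 fell by 0.41 ± 0.041 at the first of these steps and by 1.27 ± 0.047 at the second, while E2F2 fell by 0.78 ± 0.13 and 0.79 ± 0.16 and ORC1 by 0.62 ± 0.07 and 0.56 ± 0.08. CDC45 (0.02), CDT1 (-0.02) and MCM7 (-0.04) did not pass the test at the second step. The 3 rises at the second step were CDC6 (0.45), RFC1 (0.35) and RPA2 (0.11). High against low dose, which keeps the code set constant, 42 fell and 2 rose, where 27.4% of all genes were called lower and 30.4% higher.

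The members that passed the test at the low dose of Aconiti were RRM2, RRM1, TYMS, MCM3 and FEN1. RRM2 fell by 0.18 ± 0.032 (edgeR adjusted p = 0.000434), and FEN1, the largest of the 5, by 0.24 ± 0.064 (edgeR adjusted p = 0.0278). In 20 of the 47 the 3 low-dose libraries lay below the 3 vehicle libraries, where 10.6% of all genes did so. The count of 5 depended on single libraries: it was 2 without vehicle replicate 1, 3 without vehicle replicate 2, 2 without low-dose replicate 1 and 1 without low-dose replicate 3. At the high dose the count of 44 stayed between 43 and 46 over the alternatives, and 43 of the 44 were called under each of 12 alternatives.

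Over the members with a promoter window, the median log2 fold change at the high dose was -0.52 in the 33 genes with an E2F match and -0.52 in the 7 without, as a description with no test. The 2 rising genes held matches, CDC6 1 of them and RFC1 2, at bases 35 and 38 of the transcript. The same letters stood in genes of either direction: TTGGCGCGAA, where matches on both strands overlap, was in ORC1 and MCM6, which fell, and in RFC1, which rose, and TTGGCGC alone was in E2F2, which fell, and in CDC6, which rose. The 7 genes with no match to the exact letters searched all fell. They were MCM10 (-1.26), FEN1 (-1.01), CCNE1 (-0.71), ORC6 (-0.52), PRIM2 (-0.39), POLD1 (-0.29) and CDC45 (-0.23). Other forms of the E2F site were not searched, so a gene without a match may still hold one.

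Bupleuri Radix, the other extract of code set 6, served as a comparison under the same set. At its high dose 0 of the 47 rose and 1 fell, MCM4 by 0.11 ± 0.029, where 4.01% of all genes were called lower and 3.01% higher. That call was lost without Bupleuri replicate 1 or 2 or without vehicle replicate 1 or 3, and 13 members had an unadjusted p under 0.05. In 14 of the 47 the 3 libraries lay below the vehicle, where 13.3% of all genes did so. Tested directly at the high dose, Bupleuri exceeded Aconiti in 42 members and was below it in CDC6 and RFC1, where 28% of all genes were called higher under Bupleuri and 30.3% lower. UHRF1 had 73.4, 77.4 and 78.1 CPM under Bupleuri, all above the 23.0 to 25.0 CPM under Aconiti, a log2 difference of 1.69 ± 0.045 (edgeR adjusted p = 3.15e-34). E2F2, at 5.63, 5.59 and 6.27 CPM under Bupleuri, differed by 1.55 ± 0.14. The smallest called difference was that of MCM7, 0.20 ± 0.036, and MCM5, RPA2 and RPA3 did not pass the test.

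**Figure D3:**
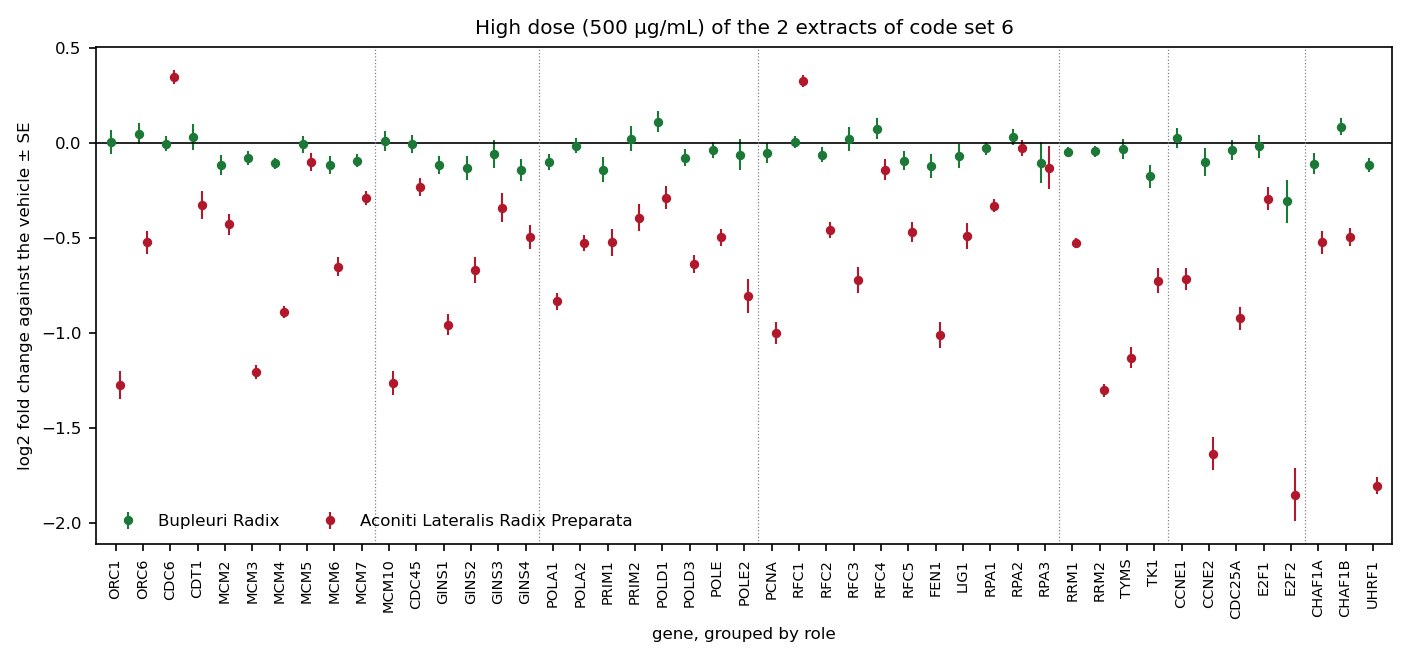
Log2 fold change against the vehicle ± SE (edgeR fit, 3 libraries per group) of the 47 genes, grouped by role, at 500 µg/mL of Bupleuri Radix (green) and Aconiti Lateralis Radix Preparata (red). Green points stay between -0.31 and 0.11, red points run from -1.85 to 0.35, and the 2 red points above 0 are CDC6 and RFC1.

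Under the other 4 extracts the changes were small, and no member changed 2-fold at any dose. The genes called lower at the high dose of the most extracts were UHRF1, MCM4 and MCM6, each in 5 of 6, and POLA1 in 4, where 2.49% of all genes were called lower in at least 5 and 6.1% in at least 4. Several of these calls were lost under at least 1 alternative: MCM4 under Citri, Bupleuri and Banhasasim-tang, MCM6 under Citri, Cimicifugae and Banhasasim-tang, UHRF1 under Banhasasim-tang and POLA1 under Citri. These comparisons share the vehicle libraries, so the counts are not independent of each other. The plot of shares called shows the members beside all genes.

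**Figure D4:**
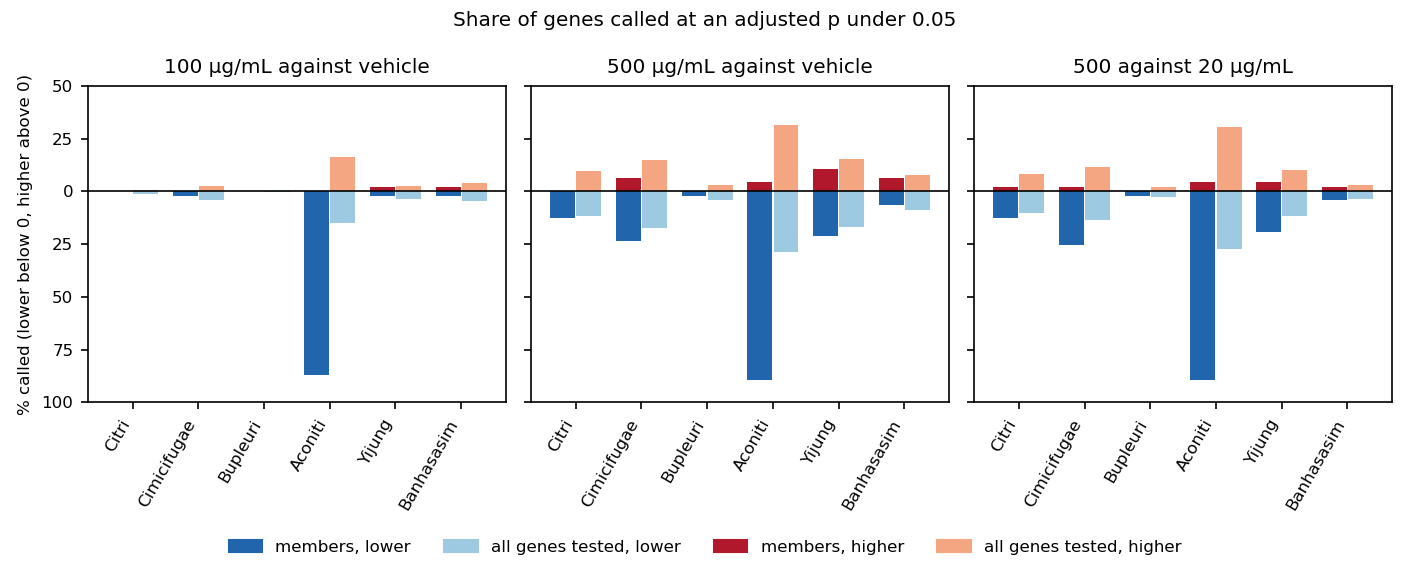
Percent of the 47 members (dark bars) and of all 17190 genes tested (pale bars) that were called lower (below 0) or higher (above 0) by edgeR at an adjusted p under 0.05, by extract, for 100 µg/mL against vehicle, 500 µg/mL against vehicle and 500 against 20 µg/mL. The longest dark bars are those of lower genes under Aconiti (42 of 47 against 28.9% at the high dose).

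Under Citri Unshius Pericarpium, a dried mandarin peel, 6 of the 47 fell at the high dose and 0 rose, where 11.8% of all genes were called lower and 9.82% higher. Of these, 4 were also lower than at the low dose: UHRF1, GINS2, POLA1 and MCM4. UHRF1 had 82.6, 77.8 and 74.8 CPM at the low dose and 68.7, 66.3 and 69.8 CPM at the high dose, all below the vehicle's 81.4 to 84.3, and fell by 0.27 ± 0.039 (edgeR adjusted p = 5.07e-07). GINS2 went from 24.2, 21.7 and 21.7 CPM in the vehicle and 22.3, 21.6 and 23.3 at the low dose to 19.9, 18.5 and 19.5 CPM and fell by 0.22 ± 0.062. POLA1 went from 63.97, 66.4 and 73.4 CPM at the low to 59.9, 61.9 and 61.9 CPM at the high dose and fell by 0.12 ± 0.042 against the vehicle, and MCM4 went from 172, 167 and 172 CPM in the vehicle and 169.8, 168 and 170.1 at the low dose to 162, 156 and 159 CPM. High against low dose, 6 fell and 1 rose (GINS1, 0.17), where 10% of all genes were called lower and 8.19% higher. The count of 6 was 2 without vehicle replicate 1 or without Citri high replicate 2, and the count of 7 was 3 without Citri high replicate 2 or Citri low replicate 3. Only UHRF1 was called at the high dose under all 12 alternatives.

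Under Cimicifugae Rhizoma 11 members fell at the high dose and 3 rose, where 17.5% of all genes were called lower and 15.1% higher. The falls reached nucleotide synthesis (RRM1, RRM2 and TYMS), the clamp and flap genes PCNA and FEN1, and the licensing genes MCM3 and MCM6, and each of these 7 calls was lost under at least 1 of 12 alternatives. The 3 calls that held under all 12 were the falls of UHRF1 and POLA1 and the rise of POLD1. FEN1 had 74.04, 70.00 and 73.1 CPM in the vehicle, 73.1, 69.7 and 68.5 at the low and 64.6, 64.2 and 52.3 at the high dose and fell by 0.26 ± 0.063 (edgeR adjusted p = 0.000908). The lowest of these values belongs to high-dose replicate 3, the library with 6.54% mitochondrial transcripts. UHRF1 went from 83.3, 87.3 and 77.8 CPM at the low to 68.9, 71.1 and 67.3 CPM at the high dose and fell by 0.26 ± 0.039 against the vehicle. MCM6 had 61.7, 60.2 and 58.4 CPM at the low and 54.95, 55.9 and 47.97 CPM at the high dose, with replicate 3 again lowest, and fell by 0.21 ± 0.049. POLA1, at 59.2, 58.5 and 58.9 CPM, fell by 0.18 ± 0.042, and TYMS, at 82.8, 84.2 and 76.9 CPM, fell by 0.15 ± 0.052. The 3 rises were POLD1 (0.19), CHAF1B (0.16) and CDC45 (0.13). CHAF1B was also higher than at the low dose, going from 31.99, 32.95 and 33.4 to 38.2, 40.1 and 37.9 CPM, without overlap. High against low dose 12 fell and 1 rose, where 13.5% of all genes were called lower and 11.7% higher. The count of 14 was 10 without high-dose replicate 3, 8 without vehicle replicate 1, and 3 with the compared groups fitted alone, and the count of 13 was 7 without high-dose replicate 3.

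Under Yijung-tang 10 members fell at the high dose and 5 rose, where 16.7% of all genes were called lower and 15.3% higher. The falls named by size were in primase, thymidine salvage, GINS, the MCM ring and the clamp loader. PRIM1 had 23.00, 23.9 and 23.6 CPM in the vehicle, 22.4, 23.2 and 22.5 at the low and 18.5, 21.04 and 18.2 at the high dose and fell by 0.28 ± 0.069 (edgeR adjusted p = 0.00118). TK1 went from 65.8, 64.96 and 60.8 CPM in the vehicle to 49.5, 52.5 and 55.7 CPM and fell by 0.28 ± 0.062. GINS2, at 19.1, 19.3 and 19.3 CPM, fell by 0.23 ± 0.063. MCM6, at 48.5, 54.8 and 54.1 CPM, fell by 0.22 ± 0.049, and RFC5, from 40.1, 39.9 and 35.9 CPM in the vehicle to 32.6, 35.2 and 31.8 CPM, by 0.22 ± 0.05. PRIM1 shares 33 bases of exon with NACA and RFC5 shares 186 with WSB2, both genes of higher level. The rises were E2F1 (0.18), CHAF1B (0.18), POLD1 (0.17), CDC25A (0.16) and CDC6 (0.10). CDC25A went from 25.9, 26.1 and 27.96 CPM at the low to 28.9, 29.7 and 31.5 CPM at the high dose, and POLD1 from 31.5, 32.7 and 32.99 to 35.8, 32.9 and 40.5 CPM, where replicate 2 overlapped the low dose. The count of 15 was 14 without high-dose replicate 1, and the calls of CDC25A, CDC6, GINS2, GINS4 and POLD1 were lost under at least 1 alternative. All 13 mitochondrially encoded transcripts rose in the same comparison, to 5.23 to 7.37% of counts, and their part in these changes was not tested. High against low dose 9 fell and 2 rose, where 11.5% of all genes were called lower and 10.2% higher, and the count of 11 was 6 without high-dose replicate 1, the library with 7.37% mitochondrial transcripts, and 7 without low-dose replicate 2.

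Under Banhasasim-tang 3 members fell at the high dose (UHRF1, MCM6 and MCM4) and 3 rose (MCM10, CDC45 and CDC6), where 8.82% of all genes were called lower and 7.99% higher. UHRF1 had 84.6, 84.6 and 84.8 CPM at the low and 74.2, 76.6 and 73.3 CPM at the high dose and fell by 0.14 ± 0.039 (edgeR adjusted p = 0.00611). MCM4 had 169, 169 and 164 CPM at the low and 161, 155 and 154 CPM at the high dose and fell by 0.12 ± 0.029. All 3 falls and the rise of CDC45 were lost under at least 1 of 12 alternatives, while MCM10 and CDC6 held under all of them. MCM10 was above the vehicle at each dose, by 0.19, 0.24 and 0.20 on the log2 scale at the low, medium and high dose, and all 3 passed the test. Of the 13 mitochondrially encoded transcripts 10 rose at the high dose, and their part in these changes was not tested. High against low dose UHRF1 (-0.18) and MCM4 (-0.09) fell and RRM2 (0.14) rose, where 3.58% of all genes were called lower and 3.08% higher. Bupleuri had 1 such call, E2F2, from 7.44, 7.18 and 7.91 CPM at the low to 5.63, 5.59 and 6.27 CPM at the high dose (-0.37, edgeR adjusted p = 0.043), where 2.45% of all genes were called lower, and this call was lost without any of 5 of the 6 libraries.

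At the medium and low doses few members passed the test outside Aconiti. At the medium dose Citri and Bupleuri had 0 calls (3 and 0 members at an unadjusted p under 0.05, and 0 and 0 calls by DESeq2), where 2.07% and 0.413% of all genes were called. Cimicifugae had 1 fall, RFC1 (-0.10), where 3.92% of all genes were called lower. Yijung-tang and Banhasasim-tang each had MCM4 lower and MCM10 higher at the medium dose, where 6.28% and 8.32% of all genes were called. At the low dose Citri, Cimicifugae, Bupleuri and Yijung-tang had 0 calls (6, 3, 1 and 7 members at an unadjusted p under 0.05, and 0 calls each by DESeq2), where 1.88%, 1.27%, 0.0756% and 6.38% of all genes were called. Banhasasim-tang had MCM10 higher and RRM2 lower (-0.12), where 5.75% of all genes were called. The count for Cimicifugae at the medium dose was 0 without any 1 of its 3 libraries or vehicle replicate 1 or 3. That for Yijung-tang at the medium dose was 0 without its replicate 1 or vehicle replicate 1 or 3, and 1 without its replicate 2 or 3 or vehicle replicate 2. That for Banhasasim-tang at the medium dose was 1 without its replicate 3 or vehicle replicate 3. At the low dose the Banhasasim-tang count was 0 without its replicate 1 or 3 or vehicle replicate 1, and 1 without vehicle replicate 2 or 3, and the Citri count was 1 without its replicate 2.

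The other 2 pairs of extracts that share a code set differed in few members. Citri exceeded Cimicifugae at the high dose in FEN1 (0.19), RRM2 (0.12) and RRM1 (0.08), where 6.51% of all genes were called higher. Without Cimicifugae replicate 3 this count was 0, without Citri replicate 1 it was 1 and without Cimicifugae replicate 2 it was 6. Yijung-tang was below Banhasasim-tang in 8 members and above it in 1, where 12.7% of all genes were called lower and 11.1% higher. The largest of these differences were in PRIM1 (-0.25), GINS4 (-0.22) and GINS2 (-0.21), and the count of 9 was 4 without Yijung-tang replicate 1.

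Lists of genes around replication were counted in the same way at the high dose of Aconiti, where 28.9% of all genes were called lower and 31.5% higher. Of 27 other replication factors 15 fell, 3 rose and 9 did not pass the test, with a median log2 fold change of -0.16. Of 21 other genes of nucleotide synthesis 10 fell and 7 rose (median -0.16), and of 15 genes of the replication checkpoint and fork repair 7 fell and 3 rose (median -0.11). Of 10 other S phase chromatin genes 8 fell and 1 rose (median -0.58). All 27 mitosis genes fell, with a median of -0.76, and MKI67, the proliferation antigen, went from 277, 266 and 277 CPM in the vehicle to 111, 95.4 and 101 CPM, or fell by 1.42 ± 0.059. KIF20A (-1.60), a kinesin of cell division, and ASPM (-1.47), a spindle protein, had the largest falls of that list. Under Citri 13 mitosis genes rose and 0 fell at the high dose, with a median of 0.11. There 9.82% of all genes were called higher and 11.8% lower. Among the 47 members 6 fell and 0 rose, close to the share of all genes called lower, with a median of -0.029. That count of 6 was 2 without vehicle replicate 1 or without Citri high replicate 2.

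Other regulators of the G1 to S step were counted beside the same shares of all genes, 28.9% lower and 31.5% higher. Of 28 such regulators 27 passed the filter, and 11 fell, 9 rose and 7 did not pass the test at the high dose of Aconiti, with a median of -0.02. CDKN1A, the p21 inhibitor of cyclin-dependent kinases, had 21.9, 22.8 and 21.5 CPM in the vehicle, 18.5, 20.3 and 19.9 at the medium and 58.4, 61.2 and 61.7 at the high dose. It rose by 1.45 ± 0.064 at the high dose and did not pass the test at the medium dose (-0.17, edgeR adjusted p = 0.0606). MYC, a growth-promoting transcription factor, went from 44.2, 43.03 and 48.5 CPM in the vehicle over 72.1, 74.3 and 74.4 at the medium to 146, 131 and 139 CPM at the high dose and rose by 1.62 ± 0.065. CDKN1B, the p27 inhibitor (0.11, edgeR adjusted p = 0.0546), and CCND1, cyclin D1 (-0.04, edgeR adjusted p = 0.531), did not pass the test. CDKN2C, the p18 inhibitor of CDK4 and CDK6, fell by 2.09 ± 0.052, from 97.8, 102 and 100.1 CPM to 25.3, 21.6 and 23.8 CPM. E2F7 and E2F8, 2 repressors of E2F targets that were singled out after their values were seen, went opposite ways. E2F7 rose from 102, 102 and 99.3 CPM to 351, 365 and 360.0 CPM, or by 1.82 ± 0.039, and E2F8 fell by 1.45 ± 0.11. Of 19 targets of p53, 11 rose and 3 fell (median 0.29), beside 31.5% and 28.9% of all genes. The largest rises were in BBC3 (3.55), SESN2 (2.75) and GADD45A (2.41), and the 3 falls were in ZMAT3 (-0.69), TP53I3 (-0.60) and FAS (-0.16). Whether p53 had a part in these changes was not tested.

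**Figure D5:**
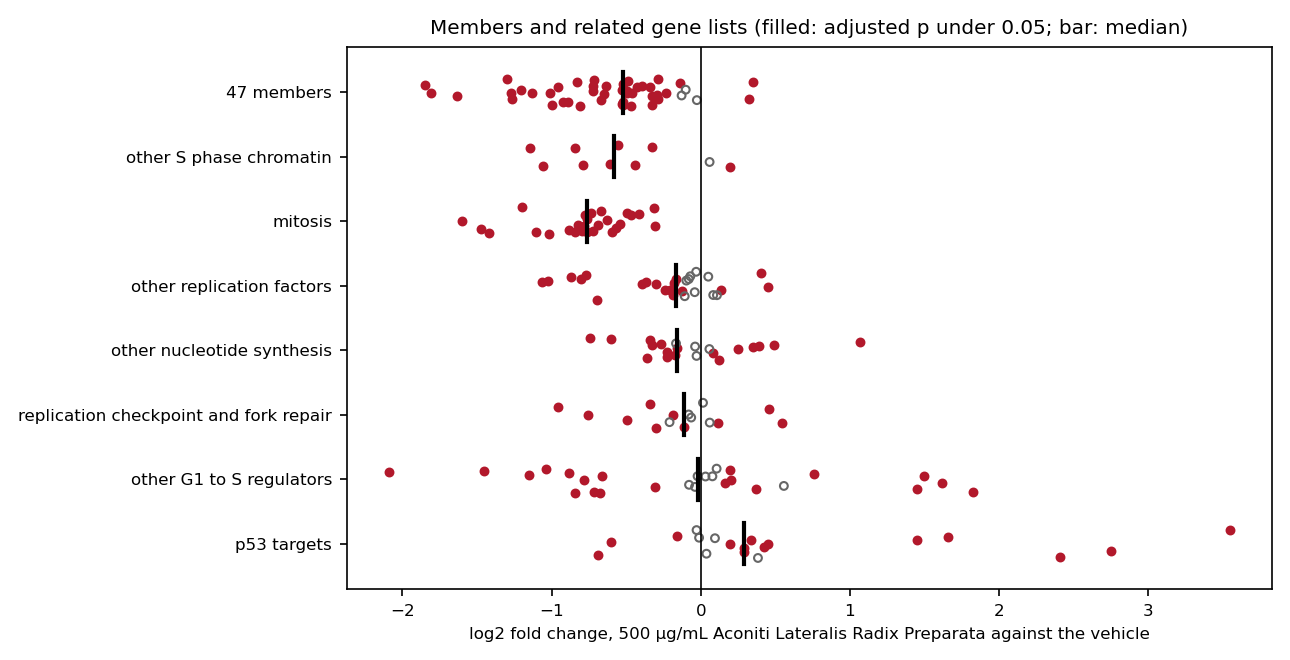
Log2 fold change of single genes at 500 µg/mL of Aconiti Lateralis Radix Preparata against the vehicle, for the 47 members and 7 related lists; filled points passed the edgeR test at an adjusted p under 0.05, open points did not, and the bar is the median. Mitosis genes (median -0.76) and S phase chromatin genes (median -0.58) lie to the left with the members (median -0.52), while targets of p53 lie mostly to the right (median 0.29).

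At the high dose of the other extracts, CCND1 fell under Citri (-0.66) and Cimicifugae (-0.72) and did not pass the test under Bupleuri, Yijung-tang or Banhasasim-tang. CDKN1A rose under Citri (0.47), Cimicifugae (0.31) and Yijung-tang (0.20). MYC rose under Cimicifugae (0.27), Bupleuri (0.34), Yijung-tang (0.34) and Banhasasim-tang (0.23). CDK6, the kinase partner of cyclin D, fell under all 6 extracts, with log2 fold changes of -0.37 under Citri, -0.43 under Cimicifugae, -0.18 under Bupleuri, -0.88 under Aconiti, -0.40 under Yijung-tang and -0.17 under Banhasasim-tang. These comparisons share the vehicle libraries.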

How the data were processed

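RNA from SW1783 cells was sequenced as directional 100-base paired reads. The deposited values are expected counts per gene, made by the authors with STAR 2.7.3a and RSEM 1.3.3 after FastQC 0.11.9 and Trim Galore 0.6.5 on GRCh38, per the submitters' processing notes. Neither the annotation release nor the strand setting is named in the sources read here. Expected counts were rounded (9.22% were not whole), filtered with filterByExpr by group, scaled by TMM and fitted over all 57 libraries with the quasi-likelihood test of edgeR 4.0.16 in R 4.3.3. P-values were adjusted by Benjamini-Hochberg over 17190 genes, with a threshold of 0.05. Total counts of 18.9 to 36.4 M per library set the precision of low genes such as E2F2. Doses were compared with the vehicle and with each other, and extracts of one code set at the high dose. Size factors, the filter, the groups fitted, a replicate block and left-out libraries were varied, with DESeq2 1.42.0 as another tool. Genes with values in every library were those called alike against vehicle and low dose, at most 5 per direction, and the highest gene of each role; MCM3, MCM5, MCM10, POLA1 and TYMS under Aconiti and E2F2 under Bupleuri were added after their values were seen. Other lists were named by the 3 largest calls per direction and 5 fixed genes. The members and lists were chosen with earlier results of these data known, and the comparisons between neighbouring doses of Aconiti were added after the levels were seen.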

Additional observations from a re-analysis of the deposited data

Results flagged for a closer look

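Extracts that share a sample code set were compared directly in the replication genes at 500 µg/mL, by edgeR at an adjusted p under 0.05. Bupleuri and Aconiti differed in 44 of the 47 members, 42 of them higher under Bupleuri, where 58.3% of all genes were called. In the other 2 same-set pairs the share of members that differed was below that of all genes. Yijung-tang and Banhasasim-tang differed in 9 of the 47, where 23.8% of all genes were called, and Citri and Cimicifugae in 3, where 12.3% were called.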

How the results depend on the processing

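The 44 calls at the high dose of Aconiti, 42 of them falls, changed least: 43 were called under each of 12 alternatives, and RFC4 was lost in 3. Counts of called members stayed within 1.5 times in 29 of 29 comparisons with the replicate block, in 28 with RLE size factors, 26 with DESeq2, 24 without Citri low replicate 3 and Cimicifugae high replicate 3 together, 22 with no filter and 19 with the compared groups fitted alone. No result reversed. The cause of the changes below was not tested. Depth limits low genes such as E2F2 most.

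With the compared groups fitted alone, members called at the high dose against vehicle were 3 for Cimicifugae and 3 for Bupleuri; at the medium dose 0 for Cimicifugae and 6 for Banhasasim-tang. Between high and low dose they were 1 for Citri, 3 for Cimicifugae, 4 for Bupleuri and 6 for Yijung-tang, and in the pairs 0 for Citri against Cimicifugae and 5 for Yijung-tang against Banhasasim-tang. With no filter on low counts they were 2 for Citri and 3 for Banhasasim-tang at the high dose, 0 for Cimicifugae, 1 for Yijung-tang and 1 for Banhasasim-tang at the medium dose, 1 for Banhasasim-tang at the low dose, and 0 for Bupleuri between doses. DESeq2 gave 2 for Bupleuri at the high dose, 0 for Cimicifugae at the medium dose and 2 for Bupleuri between doses, and RLE size factors gave 0 for Cimicifugae at the medium dose. Without those 2 libraries the counts were 3 for Bupleuri at the high dose, 5 for Banhasasim-tang at the medium dose, 8 for Cimicifugae and 2 for Bupleuri between doses, and 1 for Citri against Cimicifugae.

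With each replicate left out in turn, members called against vehicle ranged at the high dose from 2 to 6 for Citri, 8 to 16 for Cimicifugae and 0 to 1 for Bupleuri. At the medium dose they ranged from 0 to 1 for Cimicifugae, 0 to 1 for Yijung-tang and 1 to 2 for Banhasasim-tang, and at the low dose from 0 to 1 for Citri, 1 to 4 for Aconiti and 0 to 2 for Banhasasim-tang. Between high and low dose they ranged from 3 to 10 for Citri, 7 to 19 for Cimicifugae, 0 to 1 for Bupleuri and 6 to 12 for Yijung-tang, and in the pairs from 0 to 6 for Citri against Cimicifugae and 4 to 9 for Yijung-tang against Banhasasim-tang.

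In 0 of 29 comparisons did every same-numbered pair of libraries correlate over 0.1 in their deviations from the group means. Within a code set the median correlation was 0.018 for libraries of the same number and -0.008 for those of other numbers. With 3 libraries per group this check cannot settle whether the numbers pair the samples. With the replicate block the count was 44 at the high dose of Aconiti, 42 at the medium and 5 at the low dose.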

Other observations

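Bojungikgi-tang had 1 library per dose, so its values have no replicate check and no test. At its high dose 11 of the 47 replication genes lay below the range of the 3 vehicle libraries, 17 above it and 19 within it, where 30.5% of all genes lay below and 31.6% above. At the medium dose 16 lay below, 10 above and 21 within, where 28.7% of all genes lay below and 29% above. At the low dose 16 lay below, 11 above and 20 within, where 28.5% of all genes lay below and 28.6% above. The median log2 difference from the vehicle mean was 0.005, 0.008 and -0.003 from the high to the low dose, and the members ran from -0.21 to 0.23 over the 3 doses.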
